A study of Homo sapiens with 6 samples.

Results

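The 10 genes described here encode ligands of transforming growth factor beta (TGFB1 and TGFB2), a binding protein that holds the ligand latent (LTBP3), the receptors TGFBR1, TGFBR2 and TGFBR3, the signal transducer SMAD3, and proteins that restrain the pathway (SKI, SKIL and PMEPA1). They were taken from the deposited count table by symbol, and all 10 were found among its 27264 gene rows. The cells were DLD-1, an established line from a human colorectal carcinoma, in 3 clones named WT2, WT5 and WT37; the descriptions of all 6 samples add the code TR21, which they do not explain. Each clone gave 1 library with DOX (doxycycline, as the abbreviation is commonly used) and 1 library without DOX, so there were 3 libraries per group. The labels give the genotype of all 6 libraries as ZEB2 WT, call the cells with DOX mesenchymal and the cells without DOX epithelial, and the series title names an epithelial-to-mesenchymal transition (EMT) mediated by ZEB2, a zinc finger repressor. Neither the dose nor the time of DOX is stated in the labels. Each clone is a single derived line, and no library with DOX comes from cells of another genotype, so an effect of DOX alone and an effect of ZEB2 cannot be told apart.

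TGF-beta ligands are secreted in a latent form, bound to their own propeptide and to latent TGF-beta binding proteins, and are released by integrins or proteases. The active ligand brings together the kinases TGFBR2 and TGFBR1, and TGFBR1 then phosphorylates SMAD2 and SMAD3, which enter the nucleus with SMAD4. SKI and SKIL hold SMAD target genes off, and SKIL and PMEPA1 are themselves switched on by the pathway and dampen it. In epithelial cells the pathway is known both for growth arrest and for driving EMT, and colorectal cancers with mismatch repair defects often carry inactivating frameshifts in TGFBR2, which read counts do not show.

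To show what lies at the start of the genes whose levels with and without DOX did not overlap, the promoters of TGFBR3, SMAD3 and TGFB1 are printed below, from 250 bases before to 50 bases after a RefSeq start (GRCh38.p14, in the direction of transcription). The capitals mark CACCTG or its reverse complement CAGGTG, an E-box that ZEB proteins are known to bind.
TGFBR3, chr1:91886102-91886401, minus strand: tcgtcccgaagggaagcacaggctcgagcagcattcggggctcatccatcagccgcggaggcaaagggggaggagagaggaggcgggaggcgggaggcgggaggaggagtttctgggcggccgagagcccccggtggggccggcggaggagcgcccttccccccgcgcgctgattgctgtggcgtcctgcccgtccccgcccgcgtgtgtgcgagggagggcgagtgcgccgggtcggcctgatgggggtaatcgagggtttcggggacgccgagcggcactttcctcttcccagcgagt
TGFB1, chr19:41353873-41354172, minus strand: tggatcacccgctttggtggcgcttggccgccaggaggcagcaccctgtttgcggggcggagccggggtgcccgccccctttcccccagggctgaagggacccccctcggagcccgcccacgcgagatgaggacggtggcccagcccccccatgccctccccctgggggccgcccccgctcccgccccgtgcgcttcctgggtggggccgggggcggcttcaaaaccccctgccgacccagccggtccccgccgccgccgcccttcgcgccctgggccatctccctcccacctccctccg
SMAD3 at the most upstream start, chr15:67065352-67065651, plus strand: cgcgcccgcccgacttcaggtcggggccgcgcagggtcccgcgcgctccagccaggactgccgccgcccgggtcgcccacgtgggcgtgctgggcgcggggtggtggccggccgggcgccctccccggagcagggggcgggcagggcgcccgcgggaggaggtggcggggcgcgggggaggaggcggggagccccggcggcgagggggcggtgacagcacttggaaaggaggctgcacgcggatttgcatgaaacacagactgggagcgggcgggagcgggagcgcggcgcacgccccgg
SMAD3 at the most downstream start, chr15:67166281-67166580, plus strand: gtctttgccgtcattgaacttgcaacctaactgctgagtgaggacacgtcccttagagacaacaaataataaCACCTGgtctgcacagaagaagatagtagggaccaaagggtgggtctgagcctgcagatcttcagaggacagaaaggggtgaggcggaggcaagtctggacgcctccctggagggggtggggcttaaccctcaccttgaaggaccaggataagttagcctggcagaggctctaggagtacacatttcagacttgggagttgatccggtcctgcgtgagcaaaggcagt
The E-box was in 1 of these 4 windows. SMAD3 had 5 RefSeq starts, and its windows that are not printed here held no E-box. RefSeq gave 25 starts for 9 of the 10 genes, all except SKI. The E-box, searched on both strands, was in 6 of the 25 windows, 3 of them at TGFBR1 and 1 each at SMAD3, PMEPA1 and LTBP3 (windows of 1 gene can overlap), against 20.6% of the 35116 windows of all genes. The shorter core CACCT, which every CACCTG contains, was in 13 of the 25 against 51.6% of all, and the palindrome GTCTAGAC, to which SMAD3 binds, was in 0 of the 25 against 0.202% of all. These are matches of letters, and which start the cells used was not measured, since the libraries read the 3' ends of transcripts.

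The libraries held 5440093 to 7164426 reads in genes. Levels are given as CPM, the standard scaling of a gene's reads to a fixed library total, after scaling by TMM, edgeR's correction for differences in library composition, and since each fragment comes from a transcript end, gene length does not enter. ZEB2 itself had 20, 9 and 22 reads with DOX and 9, 5 and 3 without DOX in WT2, WT5 and WT37. Its log2 ratio of DOX over no DOX was 0.92, 0.63 and 2.81 in these clones. The 95% counting interval, which covers counting error only, excluded 0 in WT37 (1.07 to 5.19) and included 0 in WT2 and WT5. With the clone as a block the log2 fold change was 1.38 ± 0.48 SE. On these low counts the difference did not pass edgeR's test (adjusted p = 0.780, and 0.225 with the block). Whether reads at transcript ends capture all ZEB2 RNA in these cells was not tested. Of 8 markers of colon epithelium, 7 were tested, and 6 of them were lower with DOX in every clone, as were 17.2% of all genes. The summed level of all 8, CDX2 included, was 3427 to 4867 CPM with DOX and 5680 to 7433 CPM without DOX. The markers of fibroblasts, leukocytes and endothelium that the table holds summed to at most 1.34 CPM per list in any library, and COL1A2, LYZ and PECAM1 were at 0 in all 6. In the blocked fit EPCAM and KRT18 fell and CDX2 rose at an adjusted p under 0.05, where 0.639% of all genes fell and 0.656% rose. The part of these markers in the values below was not tested. In such bulk samples, fewer cells that express a gene and less RNA per cell cannot be told apart.

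SMAD3 had the highest level of the 10 genes and TGFB2 the lowest. Over the 6 libraries, SMAD3 averaged 78.6 CPM, followed by SKI (50.1), LTBP3 (33.8), TGFBR3 (30.0), TGFBR2 (26.7), TGFBR1 (21.4), PMEPA1 (14.1), SKIL (10.4), TGFB1 (9.08) and TGFB2 (4.52). SMAD3 lay above SKI in every library. In the other 8 of the 9 pairs of neighbours in this order the ranges over libraries overlapped. All 10 genes passed the filter on low counts, the fewest reads being 14 for TGFB2 in WT37 without DOX.

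**Figure D1:**
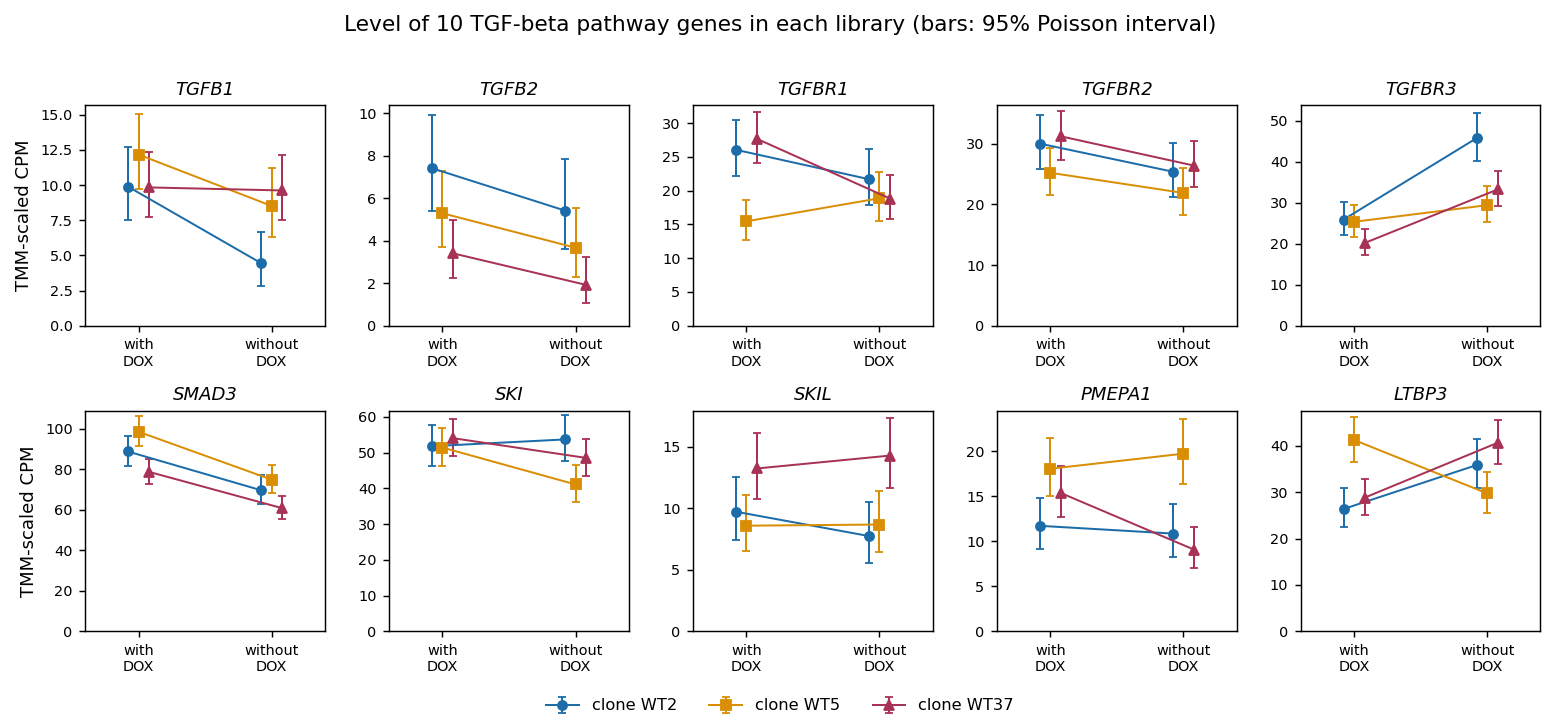
Level of each gene in TMM-scaled CPM (vertical axis, from 0) with DOX and without DOX, 1 line per clone, with 95% Poisson intervals that cover counting error only. The 3 libraries with DOX lie above the 3 without DOX for SMAD3 and TGFB1 and below them for TGFBR3, and in the other 7 panels the groups overlap.

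No gene of the 10 passed the test for a change with DOX. Without a term for the clone, edgeR's quasi-likelihood test with Benjamini-Hochberg adjustment called 0 of the 10 and 0% of all 11732 genes tested (709 genes, or 6.04%, had an unadjusted p under 0.05, and DESeq2 called 57). With the clone as a block, which compares the libraries within each clone, it called 0 of the 10 against 1.30% of all genes (0.656% higher and 0.639% lower). In that fit 2 of the 10, SMAD3 and TGFBR3, had an unadjusted p under 0.05, 1 of them higher and 1 lower with DOX, against 12.9% of all genes (6.71% higher and 6.16% lower). The direction was the same in all 3 clones for 5 of the 10, against 35.0% of all genes: TGFB1, TGFB2, TGFBR2 and SMAD3 were higher with DOX (17.8% of all genes) and TGFBR3 was lower (17.2%). The groups did not overlap for 3 of the 10, against 11.4%. In the blocked fit 8 of the 10 had a log2 fold change above 0, with a median of 0.21, where all genes had a median of 0.01. The share of all genes above 0 in that fit was not counted. With 10 genes, chosen with earlier results of these data known, these counts are a description of the list.

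**Figure D2:**
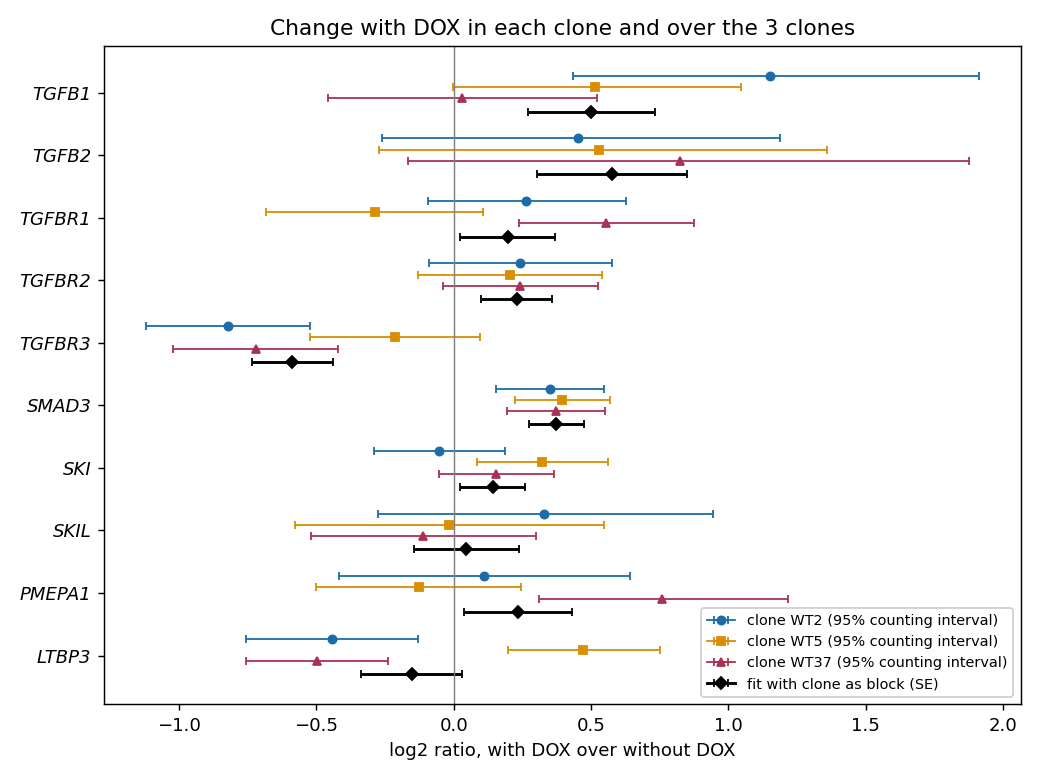
Log2 ratio of the level with DOX over that without DOX (horizontal axis) for each gene, as coloured points for the 3 clones with 95% counting intervals and as black diamonds with SE for edgeR's fit with the clone as a block. The 3 points of SMAD3 lie at 0.35, 0.40 and 0.37, whereas LTBP3 is below 0 in WT2 and WT37 and above 0 in WT5.

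TGFB1 and TGFB2 had higher levels with DOX than without DOX in each of the 3 clones, at low read counts, and neither passed the test. The other TGF-beta ligand gene, TGFB3, had 1.48, 3.01 and 3.28 CPM with DOX, against 3.10, 4.01 and 2.34 CPM without DOX in WT2, WT5 and WT37, on 9 to 25 reads. Its level was lower with DOX in WT2 and WT5 and higher in WT37, and its blocked log2 fold change was -0.25 ± 0.36 SE (adjusted p = 0.817). TGFB1 (ENSG00000105329, chromosome 19, 41301587 to 41353911, minus strand, GRCh38) had 9.89, 12.2 and 9.83 CPM with DOX in WT2, WT5 and WT37, against 4.46, 8.52 and 9.62 CPM without DOX. The 2 sets are separate, but in WT37 the libraries differ by little, and the gap is widest in WT2, where the library without DOX is the lowest of the 6. The blocked log2 fold change was 0.50 ± 0.23 SE (adjusted p = 0.390), and within the clones the log2 ratio was 1.15 in WT2 (95% counting interval 0.44 to 1.91), 0.51 in WT5 and 0.03 in WT37. TGFB1 shares exonic sequence with HNRNPUL1 on the opposite strand, which had up to 2412 reads in a library where TGFB1 had up to 85. The labels do not say whether reads were assigned by strand, and the TGFB1 count is uncertain to that extent. HNRNPUL1 itself had a log2 ratio of -0.16 in WT2 (counting interval -0.26 to -0.066) and 0.21 in WT5 (0.13 to 0.30). In WT37 it was at -0.063 (-0.16 to 0.031). It differed in the same direction as TGFB1 in WT5 and in the opposite direction in WT2, where TGFB1 differed most. Whether its reads entered the TGFB1 count was not tested.

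TGFB2 (ENSG00000092969, chromosome 1, 218346235 to 218444619), a ligand that depends more than TGFB1 on TGFBR3 to bind its receptor, had 7.42, 5.30 and 3.41 CPM with DOX, against 5.42, 3.67 and 1.92 CPM without DOX in WT2, WT5 and WT37. The groups overlap, since WT37 with DOX lies below WT2 and WT5 without DOX, yet each clone was higher with DOX. The reads behind these levels were 45, 37 and 26 with DOX and 28, 22 and 14 without DOX, and the counting intervals of all 3 within-clone ratios included 0. The blocked log2 fold change was 0.58 ± 0.27 SE (adjusted p = 0.399). An annotated transcript on the strand of TGFB2, TGFB2-OT1, shares exonic sequence with it and has no row of its own among the counts.

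LTBP3 (ENSG00000168056, chromosome 11, 65538805 to 65558930, minus strand), which tethers latent TGF-beta in the matrix, was lower with DOX in WT2 and WT37 and higher with DOX in WT5. It had 26.4, 41.2 and 28.8 CPM with DOX, against 35.8, 29.7 and 40.7 CPM without DOX in WT2, WT5 and WT37. WT5 with DOX was the highest library of the 6 and WT2 with DOX the lowest. The log2 ratio was -0.44 in WT2 (counting interval -0.76 to -0.13), 0.47 in WT5 (0.20 to 0.75) and -0.50 in WT37 (-0.75 to -0.24). It was the 1 gene of the 10 with such intervals on opposite sides of 0, which held for 8.47% of all genes. With 1 library per clone and condition the difference between clones in the response to DOX has no replicate and was not tested. The estimate over the clones was -0.15 ± 0.18 SE in the blocked fit (adjusted p = 0.778).

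Of the receptors, TGFBR3 had the lowest p of all 10 genes, and its level was lower with DOX. TGFBR3 (ENSG00000069702, chromosome 1, 91680343 to 91906335, minus strand) encodes betaglycan, a coreceptor without kinase activity that presents the ligand to TGFBR2. It had 25.9, 25.3 and 20.2 CPM with DOX, against 45.7, 29.4 and 33.2 CPM without DOX in WT2, WT5 and WT37. Every library with DOX was below every library without DOX, as for 6.08% of all genes, and the gap was narrowest in WT5. The mean was 23.8 ± 3.14 CPM with DOX and 36.1 ± 8.54 CPM without DOX (SD, n = 3 each). The log2 fold change was -0.59 ± 0.15 SE with the block (edgeR, adjusted p = 0.0836) and -0.60 ± 0.19 SE without it (adjusted p = 0.634), on the far side of the threshold of 0.05 in both fits. Within the clones the log2 ratio was -0.82 (counting interval -1.12 to -0.52) in WT2, -0.21 (-0.52 to 0.10) in WT5 and -0.72 (-1.02 to -0.42) in WT37. In the blocked edgeR fit without WT5, TGFBR3 passed, with a log2 fold change of -0.77 (adjusted p = 0.00696). That fit also called more of all genes than the blocked fit of all clones did. Over all alternatives the adjusted p of TGFBR3 lay between 0.00473 and 1.00.

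The kinase receptors showed smaller differences. TGFBR2 (ENSG00000163513, chromosome 3, 30606502 to 30694142), which binds the ligand, had 30.0, 25.2 and 31.2 CPM with DOX, against 25.4, 21.9 and 26.4 CPM without DOX in WT2, WT5 and WT37. The ratios of the clones were alike, at 0.24, 0.20 and 0.24 on the log2 scale, each with a counting interval that included 0, and the groups overlapped because WT5 was the lowest clone in both. The blocked log2 fold change was 0.23 ± 0.13 SE (adjusted p = 0.486). TGFBR1 (ENSG00000106799, chromosome 9, 99104038 to 99154192), which phosphorylates SMAD2 and SMAD3, had 26.1, 15.5 and 27.7 CPM with DOX, against 21.7, 18.9 and 18.8 CPM without DOX. WT5 with DOX was the lowest of the 6 libraries and WT37 with DOX the highest. The log2 ratio stood at 0.26 in WT2, -0.29 in WT5 and 0.56 in WT37, where the interval of 0.24 to 0.88 excluded 0, and the blocked estimate was 0.20 ± 0.17 SE (adjusted p = 0.677).

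SMAD3 (ENSG00000166949, chromosome 15, 67063763 to 67195195), which carries the receptor signal to DNA, differed by a similar amount in each clone and was higher with DOX in all 3. It had 88.9, 98.6 and 78.8 CPM with DOX, against 69.7, 75.0 and 60.9 CPM without DOX in WT2, WT5 and WT37. All 3 libraries with DOX were above the 3 without DOX, as for 5.33% of all genes, and the order of the clones was WT5, WT2, WT37 in both groups. The mean was 88.8 ± 9.92 CPM with DOX and 68.5 ± 7.14 CPM without DOX (SD, n = 3 each). The log2 ratio was 0.35 (counting interval 0.15 to 0.55) in WT2, 0.40 (0.22 to 0.57) in WT5 and 0.37 (0.19 to 0.55) in WT37. It was the 1 gene of the 10 whose interval excluded 0 in all 3 clones. Taken 1 clone at a time, such intervals excluded 0 for 26.0% of all genes in WT2, 29.4% in WT5 and 37.4% in WT37. The share of all genes that did so in all 3 clones together was not counted. The log2 fold change was 0.37 ± 0.10 SE with the block (edgeR, adjusted p = 0.111) and 0.37 ± 0.14 SE without it (adjusted p = 0.693). The blocked edgeR fit without a filter on low counts called SMAD3 (adjusted p = 0.0430) and TGFBR3 (0.00473). That fit called 518 of the 23630 genes it tested.

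The corepressor genes SKI and SKIL differed little between the groups, and each had within-clone ratios of both signs. SKI (ENSG00000157933, chromosome 1, 2228695 to 2310119) had 51.8, 51.4 and 54.0 CPM with DOX, against 53.7, 41.1 and 48.5 CPM without DOX in WT2, WT5 and WT37. The libraries with DOX lay within 3 CPM of each other, those without DOX spread more widely, and WT2 without DOX reached the level of those with DOX. SKIL (ENSG00000136603, chromosome 3, 170357678 to 170396835), an early target of the pathway, had 9.73, 8.59 and 13.2 CPM with DOX, against 7.75, 8.68 and 14.3 CPM without DOX. WT37 held the highest SKIL level in both groups, and the groups overlapped. The blocked log2 fold change was 0.14 ± 0.12 SE for SKI (adjusted p = 0.656) and 0.05 ± 0.19 SE for SKIL (adjusted p = 0.947).

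PMEPA1 (ENSG00000124225, chromosome 20, 57648392 to 57711536, minus strand), a membrane protein that keeps SMAD2 and SMAD3 from the receptor, had 11.7, 18.0 and 15.3 CPM with DOX, against 10.8, 19.7 and 9.07 CPM without DOX in WT2, WT5 and WT37. WT5 held the highest level in both groups. WT37 was the 1 clone whose counting interval excluded 0, as for 37.4% of all genes in that clone. The log2 ratio stood at 0.11 in WT2, -0.13 in WT5 and 0.76 in WT37 (counting interval 0.31 to 1.22), and the blocked estimate was 0.24 ± 0.20 SE (adjusted p = 0.659). PMEPA1 and SKIL thus gave 0 calls, and their within-clone ratios had mixed signs. SMAD7, an inhibitory SMAD and another feedback gene, did not pass edgeR's blocked fit either (adjusted p = 0.493). Its log2 ratio was above 0 in 3 of 3 clones (17.8% of all genes), at 0.078 in WT2, 0.14 in WT5 and 0.92 in WT37.

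In each clone the counting interval excluded 0 for a part of the 10 genes, as it did for a part of all genes. In WT2, 2 genes were higher with DOX (TGFB1 and SMAD3) and 2 lower (TGFBR3 and LTBP3) by an interval that excluded 0, against 12.3% and 13.7% of all genes. In WT5, 3 were higher (SMAD3, SKI and LTBP3) and 0 lower, against 14.8% and 14.6%. In WT37, 3 were higher (TGFBR1, SMAD3 and PMEPA1) and 2 lower (TGFBR3 and LTBP3), against 17.7% and 19.8%. These intervals hold no spread between cultures.

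**Figure D3:**
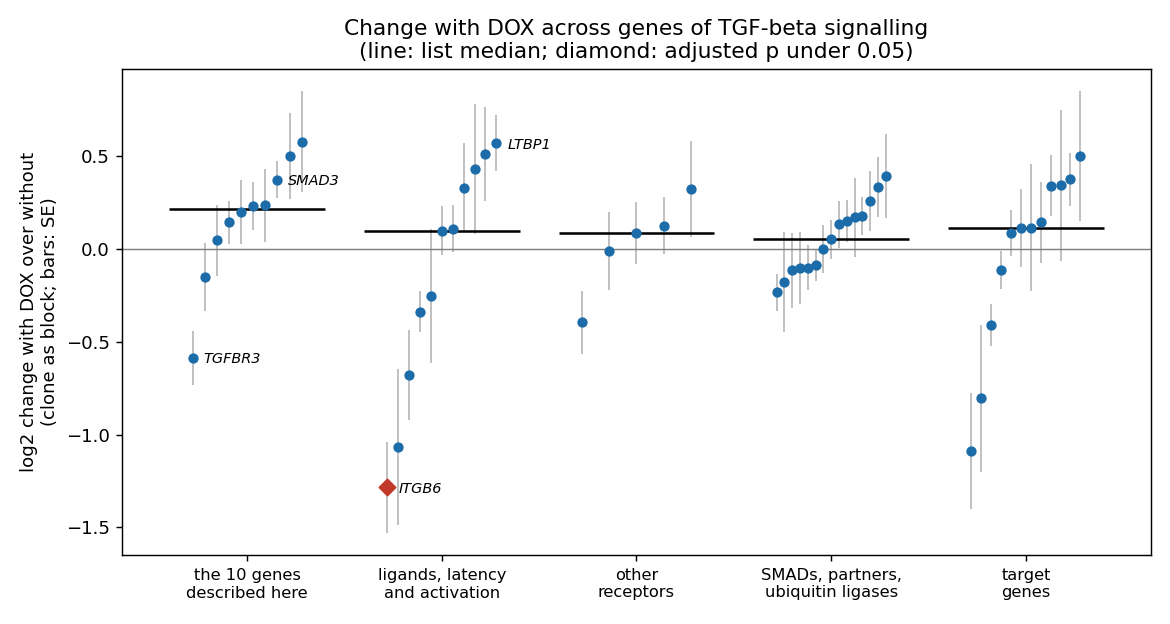
Log2 fold change with DOX over without DOX (vertical axis) from edgeR's fit with the clone as a block, with SE, for the 10 genes and 4 lists of other pathway genes; black lines are list medians and the red diamond marks an adjusted p under 0.05. ITGB6 at -1.28 is the 1 gene past the threshold, and the list medians lie between 0.05 and 0.21.

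The other genes of the pathway were read from the same fits in 4 lists, and 1 of their 43 tested members passed in the blocked fit, where 1.30% of all genes passed (0.639% lower), and 0 passed without the block. ITGB6, the integrin subunit that releases TGF-beta from its latent complex on epithelial cells, fell with DOX. It had 3.13, 2.29 and 4.33 CPM with DOX, against 7.17, 5.68 and 11.0 CPM without DOX in WT2, WT5 and WT37, on 16 to 80 reads. Every library with DOX was below every library without DOX, as for 6.08% of all genes, and the log2 ratio was -1.19, -1.31 and -1.35 in the 3 clones. The log2 fold change was -1.28 ± 0.25 SE with the block (edgeR, adjusted p = 0.0327) and -1.29 ± 0.35 SE without it (adjusted p = 0.468). The call was lost in the blocked fit without WT2 (adjusted p = 0.185), without WT37 (0.406) and with DESeq2 (0.152), while the change stayed between -1.32 and -1.24. An annotated transcript on the strand of ITGB6, AC092153.1, shares exonic sequence with it.

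Of 18 genes of ligands, latency and activation, 11 were tested, and 0 rose and 1 fell in the blocked fit, with a median log2 fold change of 0.10. Besides ITGB6, the lowest p values belonged to LTBP1, another latent TGF-beta binding protein (0.57 ± 0.15 SE, adjusted p = 0.106), FURIN, the protease that cleaves the TGF-beta precursor (-0.34 ± 0.11, adjusted p = 0.195), and ITGB8, a second activating integrin subunit (-0.68 ± 0.24, adjusted p = 0.237). LTBP1 had 42.9, 62.6 and 56.8 CPM with DOX, against 33.7, 50.3 and 27.5 CPM without DOX in WT2, WT5 and WT37. It was higher with DOX in 3 of 3 clones, as for 17.8% of all genes, where LTBP3 was higher in 1 of 3. Of 8 other receptors, 5 were tested with a median of 0.08 and 0 calls, ACVR2A, an activin receptor, being at -0.40 ± 0.17 (adjusted p = 0.349) and ACVR2B at 0.32 ± 0.26 (adjusted p = 0.641). ACVR2A shares exonic sequence with ORC4 on the opposite strand.

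Of 17 SMADs, partners and ubiquitin ligases, 15 were tested, with 0 calls and a median of 0.05. NEDD4L, a ligase that degrades activated SMADs, was at -0.23 ± 0.10 SE (edgeR with the block, adjusted p = 0.342), the ligase SMURF2 at 0.33 ± 0.16 (0.408), SMAD2 at 0.18 ± 0.10 (0.487) and SMAD7 at 0.39 ± 0.23 (0.493). SMURF2 shares exonic sequence with CEP95 on the opposite strand. SMAD2, the partner of SMAD3 at the receptor, had 105, 96.6 and 102 CPM with DOX, against 92.0, 94.7 and 81.7 CPM without DOX in WT2, WT5 and WT37.

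Of 15 target genes, 12 were tested, with 0 calls and a median of 0.11. TSC22D1 was at -0.41 ± 0.11 SE (edgeR with the block, adjusted p = 0.123), TGFBI, a secreted matrix protein, at 0.38 ± 0.14 (0.289) and the early response factor KLF10 at 0.34 ± 0.16 (0.405). The target genes had a median log2 ratio of 0.33 in WT37, 0.08 in WT5 and -0.30 in WT2. The 10 genes had medians of 0.20 in WT37, 0.26 in WT5 and 0.25 in WT2. COL1A1 and TAGLN were filtered as low, each with at most 6 reads in a library.

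**Figure D4:**
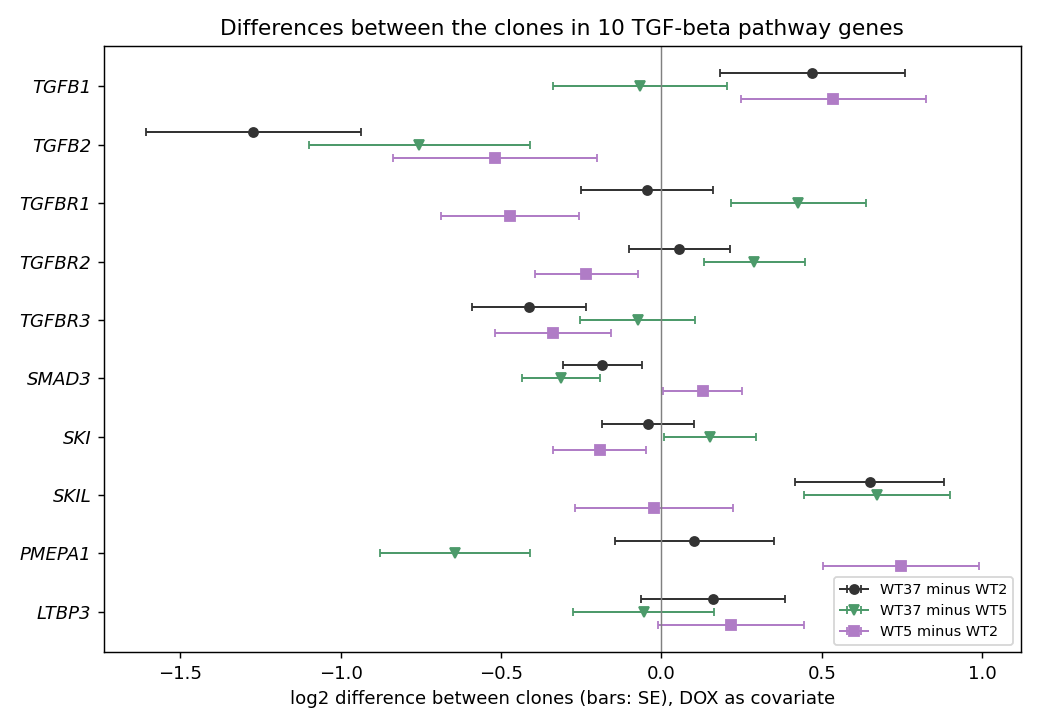
Log2 differences between clones (horizontal axis, with SE) for the 10 genes, from edgeR's fit with DOX as a covariate. The largest is TGFB2 in WT37 against WT2 at -1.27, and SKIL is higher in WT37 than in both other clones, by 0.65 and 0.67.

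The comparison of clones asks how far the 10 genes differ between lines that carry the same labels, in a fit with 1 common effect of DOX. EdgeR's test of both clone terms called 0 of the 10 after Benjamini-Hochberg adjustment, against 6.84% of all genes, and the median distance between the highest and the lowest clone was 0.44 on the log2 scale for the 10 and 0.35 for all genes. TGFB2 came nearest (adjusted p = 0.0804). Its mean level was 2.67 CPM in WT37, 4.49 CPM in WT5 and 6.42 CPM in WT2, and the contrast of WT37 against WT2 passed on its own, with a log2 difference of -1.27 ± 0.34 SE (adjusted p = 0.0456 over all genes, not adjusted over the 3 contrasts). That contrast called 5.83% of all genes (3.15% higher and 2.68% lower in WT37). The contrast of WT37 against WT5 called 0 of the 10 and 5.92% of all genes (3.17% higher and 2.74% lower in WT37), and the contrast of WT5 against WT2 called 0 of the 10 and 1.02% of all genes (0.682% higher and 0.341% lower in WT5). The test of both clone terms called TGFB2 without the WT5 library with DOX (adjusted p = 0.0320), without the WT5 library without DOX (0.0429) and without both (0.0212).

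SKIL averaged 13.8 CPM in WT37, 8.64 CPM in WT5 and 8.74 CPM in WT2, and was higher in WT37 by 0.65 ± 0.23 SE against WT2 and by 0.67 ± 0.23 SE against WT5 on the log2 scale (edgeR, adjusted p = 0.113 for both clone terms). PMEPA1 averaged 12.2 CPM in WT37, 18.9 CPM in WT5 and 11.3 CPM in WT2 (adjusted p = 0.110). SKIL and PMEPA1 therefore had their highest level in different clones. Without the WT5 library with DOX, the test called PMEPA1 (adjusted p = 0.0282) and TGFBR3 (0.0351), and without the WT5 library without DOX it called TGFBR1 (0.0438) and LTBP3 (0.0434). The number of all genes called also moved widely when a clone or library was left out. The share of all genes called without WT5 or 1 of its libraries is not given here, for these genes or for TGFB2 above. With all 6 libraries, the test of both clone terms gave adjusted p values of 0.262 for TGFBR3, 0.277 for TGFBR1 and 0.779 for LTBP3. SMAD3, TGFBR2, SKI and TGFB1 had adjusted p values between 0.242 and 0.615.

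Of the 43 other pathway genes tested, 2 passed the test of both clone terms, against 6.84% of all genes. FURIN averaged 143 CPM in WT37, 89.3 CPM in WT5 and 73.8 CPM in WT2 (edgeR, adjusted p = 0.00394), and TSC22D1 averaged 55.9 CPM in WT37, 63.2 CPM in WT5 and 89.8 CPM in WT2 (adjusted p = 0.0217). The FURIN call was lost without WT37 (adjusted p = 0.604) and without its library without DOX (0.0801). The TSC22D1 call was lost without WT2 (adjusted p = 0.543), without the WT2 library with DOX (0.0963) or without DOX (0.161), without WT37 (0.197) and without the WT37 library with DOX (0.130).

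For the gene with the lowest p for DOX and the gene with the lowest p for the clone, the genes with the most similar levels over the 6 libraries were sought among all genes tested, by Pearson's r of log2 CPM. For TGFBR3 these were CIAO2A (r = 0.993), TIMM10B (0.987) and MTARC1 (0.987), and for TGFB2 they included UQCRC1 (0.991) and SNF8 (0.987). With 6 libraries from 3 clones and 11732 genes to choose from, such values are a description of these libraries.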

How the data were processed

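Poly(A) RNA of 6 libraries was measured with QuantSeq 3' mRNA-Seq FWD, which reads transcript ends, per the labels' protocols. The deposited values are raw read counts per Ensembl gene; the submitters' processing notes name GRCh38 and DESeq2, and no source used here names the aligner, the counting program or its use of strand. Reads not given to a gene (4 rows, of which unmapped 4.29% to 5.25%, mapped to several places 11.8% to 16.0%, outside features 8.72% to 11.7%, ambiguous 6.85% to 7.40%) were left out of library sizes and tests. Reads in genes were 5440093 to 7164426 per library, and 95% Poisson and binomial intervals cover counting error only, since reads without molecular identifiers are not independent molecules.

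Counts were fitted in R 4.3.3 with edgeR 4.0.16 (quasi-likelihood test, robust, TMM, filterByExpr) over all 11732 genes kept, with Benjamini-Hochberg adjustment at 0.05; DESeq2 1.42.0 was an alternative. The fit without a clone term is the main one and the clone as replicate block an alternative. The clones pair the samples, being the same line, and the deviations from the group means correlated within each clone (r = 0.49, 0.28 and 0.53 for WT2, WT5 and WT37). Each standard error is the log2 change over the root of its F. Libraries of 1 group differed by 6.11 to 18.3 times their degrees of freedom in a chi-square comparison, more than sampling noise. Whether the clones were grown separately beyond their names is not stated, so p-values measure the spread between these libraries. Scripts were tested on simulated data.

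Gene names were looked up by Ensembl identifier in a reference table and in GENCODE release 29, which gave the positions. The 10 genes and all lists were chosen with earlier results of these data known. By rule, all 10 are described, and other pathway genes are named where they passed a test or had up to the 4 lowest p values of their list. A few genes that the rule names are not reported here. Alternatives were size factors, no filter, DESeq2 and leaving out each clone or library.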

Additional observations from a re-analysis of the deposited data

Results flagged for a closer look

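Of the 10 genes, 5 had a within-clone log2 ratio of the level with DOX over that without DOX whose sign in 1 clone was opposite to that in the others. The other 5 had 1 direction in all 3 clones, against 35.0% of all genes. Mixed signs were thus not more frequent among the 10 than among all genes. With 1 library per clone and condition, the difference between clones was not tested. LTBP3 was at 0.47 in WT5, against -0.44 in WT2 and -0.50 in WT37, all with counting intervals that exclude 0. TGFBR1 was at -0.29 in WT5, against 0.26 in WT2 and 0.56 in WT37. PMEPA1 was at -0.13 in WT5, against 0.11 in WT2 and 0.76 in WT37. For TGFBR1 and PMEPA1 the counting interval included 0 in WT5 and WT2 and excluded 0 in WT37. SKIL was at 0.33 in WT2, against -0.02 in WT5 and -0.11 in WT37, and SKI was at -0.052 in WT2, against 0.32 in WT5 and 0.16 in WT37; in WT2 both counting intervals include 0.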

How the results depend on the processing

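For none of the values below that moved with a setting was the cause tested. For DOX, 19 alternatives were run. The count of the 10 genes called was 0 except with the block and no filter (2) and with the block and without WT5 (1). Among all genes, 0 were called; DESeq2's test called 57, no filter 206, and leaving out a clone or a library gave 0 to 35. With the replicate block, 152 genes were called, with size factors 155, with no filter 518, with DESeq2 133, without WT2 8, without WT5 743 and without WT37 5. TGFB1, TGFB2, TGFBR2, SMAD3 and SKI stayed above 0 and TGFBR3 below 0 (-0.77 to -0.40) in all 19, but their size moved by over 1.5 times for TGFB1 (0.48; 0.23 without the WT2 library without DOX and 0.28 without WT2, up to 0.76 without WT37), TGFB2 (0.56; 0.24 without the WT37 library without DOX, 0.26 without the WT2 library with DOX and 0.94 without the WT2 library without DOX), SKI (0.14; 0.037 without the WT5 library without DOX, 0.053 without WT5, 0.23 without WT2 and 0.22 without its library without DOX), TGFBR2 (0.23; 0.15 without the WT5 library without DOX) and TGFBR3 (-0.60; -0.40 without the WT2 library without DOX). Signs turned in 4 of the 10 genes. SKIL, at 0.03 without the block, ranged from -0.17 to 0.36 when a clone or library was left out, below 0 without WT2 (-0.076; -0.066 with the block), without the WT37 library with DOX, and without the WT2 (-0.13) or WT5 (-0.081) library without DOX. PMEPA1 ranged from -0.040 to 0.60, below 0 without WT37 (-0.023 with the block) and without the WT37 library without DOX (-0.028). LTBP3 ranged from -0.47 to 0.051, above 0 without WT37 (0.032 with the block). TGFBR1 was at -0.0025 with the block and without WT37. Of the other genes, FURIN ranged from -0.60 to 0.026, above 0 without the WT37 library without DOX. For the clones, 12 alternatives were run. The count among the 10 was 0; it was 2 with no filter (TGFB2 and PMEPA1) and 0 to 3 when a clone or library was left out. Among all genes it was 802, with no filter 1783, with DESeq2 441, and 129 to 2286 when a clone or library was left out. Of the 10 genes, TGFB2 had the fewest reads, with 14 in 1 library.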
